A study of Mus musculus with 56 samples.

Results

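The comparison set wild-type liver against wild-type skeletal muscle of the mouse and used 6 of the 56 samples of the series. Liver WT and Muscle WT each had 3 samples, chosen by the tissue and genotype in the sample labels. WT was the only genotype used. The labels name no strain, age, sex, agent or individual muscle, and no treatment of the animals. The series as a whole compared Fmr1 knockout with wild-type tissues. It also held control N2a cells and N2a cells depleted of Fmr1 or Mbnl1, some of them with MBNL1 added. Its knockout samples, brain regions, testis and cell line were not used here. RNA came from powdered whole tissue, so every value is an average over all cell types of the organ, and a lower number of cells of a type cannot be told apart from less RNA per cell. Nothing in the labels says that samples with the same number came from the same animal, or that the 3 samples of a tissue came from separate animals, so the p-values measure only the spread between these samples.

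Liver and skeletal muscle divide the handling of fuel between them. Hepatocytes, the main cells of the liver, secrete most plasma proteins, make bile acids, glucose, urea and ketone bodies, and oxidise drugs, whereas the multinucleate fibres of skeletal muscle are packed with sarcomeres and calcium stores, burn glycogen and fat for contraction, and release no free glucose to blood. Many steps of sugar and fat metabolism are run by different isozymes in these organs, each from its own gene. Hepatocyte genes are driven by HNF1, HNF4, FOXA and C/EBP factors, and muscle genes by the MyoD family, MEF2 and SRF.

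Proximal promoters of 4 genes that head the comparison are shown first. They were picked after a search of 12 leading genes because they carry recognition letters of those factors, and 3 of the 12, Apoa1 and Eno3 among them, had no match. Albumin (Alb) and the protease inhibitor alpha-1 antitrypsin (Serpina1a) represent the liver, and the fast myosin heavy chain Myh4 and muscle glycogen phosphorylase (Pygm) represent muscle. Each line holds the 250 bases before the RefSeq start on the gene's strand, read 5′ to 3′ from the RefSeq table for GRCm38.p6. Alb lies at chr5:90460620-90460869 on the plus strand, Serpina1a at chr12:103863620-103863869 on the minus strand, Myh4 at chr11:67237562-67237811 on the plus strand and Pygm at chr19:6384158-6384407 on the plus strand. Capitals mark matches on either strand to the MyoD type E-box CAGCTG, the HNF1 motif GTTAAT, the C/EBP type palindrome TTGCNNAA, the TATA box TATAAA, the MEF2 motif and the CArG box of SRF. The HNF4 type repeat CAAAGNNCA was searched too and had no match in these 4 windows.
Alb: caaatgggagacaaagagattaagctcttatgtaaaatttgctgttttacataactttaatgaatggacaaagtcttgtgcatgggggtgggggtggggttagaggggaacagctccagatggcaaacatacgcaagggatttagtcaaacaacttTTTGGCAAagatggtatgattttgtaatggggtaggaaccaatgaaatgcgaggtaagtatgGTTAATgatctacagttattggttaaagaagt
Serpina1a: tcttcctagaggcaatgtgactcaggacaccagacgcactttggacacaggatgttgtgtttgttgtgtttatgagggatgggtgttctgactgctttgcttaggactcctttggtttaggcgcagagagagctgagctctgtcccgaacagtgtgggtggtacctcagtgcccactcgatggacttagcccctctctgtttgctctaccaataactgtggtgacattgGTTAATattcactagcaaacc
Myh4: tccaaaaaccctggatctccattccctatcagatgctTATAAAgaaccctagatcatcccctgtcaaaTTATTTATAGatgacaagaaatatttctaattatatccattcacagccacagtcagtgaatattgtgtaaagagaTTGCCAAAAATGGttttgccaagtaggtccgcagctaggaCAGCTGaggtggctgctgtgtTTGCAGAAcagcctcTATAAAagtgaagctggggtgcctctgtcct
Pygm: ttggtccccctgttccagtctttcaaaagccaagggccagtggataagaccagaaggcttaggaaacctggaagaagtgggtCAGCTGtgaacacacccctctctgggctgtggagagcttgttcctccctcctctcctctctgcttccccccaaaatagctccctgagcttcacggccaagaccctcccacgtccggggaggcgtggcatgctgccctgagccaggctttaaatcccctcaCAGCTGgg

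Albumin's window held a C/EBP type palindrome at -94 to -87 and an HNF1 motif at -32 to -27, counted back from the RefSeq start. In Serpina1a the only match was an HNF1 motif at -21 to -16. The Myh4 window held an E-box at -67 to -62, a MEF2 motif at -182 to -173 that shares bases with a TATA match at -179 to -174, and a CArG box at -104 to -95 that shares bases with a C/EBP match at -107 to -100. It also held a second C/EBP match at -46 to -39 and further TATA matches at -213 to -208 and at -31 to -26. Pygm held E-boxes at -168 to -163 and at -8 to -3, the latter downstream of the gene start in the GENCODE M21 annotation. These matches are letters only, and binding was not measured.

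The same motifs were counted in 300-base windows, from 250 before to 50 after each RefSeq start, for 8538 of the 11143 genes tested below. The HNF1 motif stood in 5.02% of all tested genes with a window, in 7.48% of 963 genes at least 4-fold higher in liver and in 5.03% of 894 genes at least 4-fold higher in muscle. The HNF4 repeat stood in 5.89% of all tested genes, 8.52% of the liver group and 5.82% of the muscle group. C/EBP palindromes were in 9.84%, 12.7% and 10.6% of the same groups. The E-box was in 17.6% of all tested genes, 20.1% of the liver group and 24.6% of the muscle group, the CArG box in 1.56%, 1.77% and 2.91%, and the MEF2 motif in 2.13%, 2.39% and 2.91%. TATA boxes were in 8.55% of all tested genes, 12.4% of the liver group and 10.9% of the muscle group. Among genes listed for 1 tissue only, a grouping added after the data were seen, 13.7% of 747 liver genes held an HNF1 motif, 17.1% an HNF4 repeat, 17.1% a C/EBP palindrome, 3.35% the MEF2 motif and 17.7% the TATA box. Of 1273 such muscle genes, 24.0% held the E-box, 4.63% the MEF2 motif, 2.28% the CArG box and 13.4% the TATA box. The liver-only shares of the HNF1, HNF4 and C/EBP letters thus stood above those of all tested genes, and the muscle-only share of the E-box letters did so too. The MEF2 and TATA letters stood above those of all tested genes in both one-tissue groups. The C/EBP letters did so too, at 11.4% of the muscle-only genes. Smaller excesses over all tested genes were seen for the HNF1 (5.18%) and HNF4 (6.21%) letters in muscle-only genes. The E-box letters in liver-only genes, at 18.1%, were also slightly above.

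Total read counts were 13473200 to 16168225 in the liver samples and 13934559 to 15386794 in the muscle samples, and the correlation of log2 CPM (read counts scaled to the library size) between samples of a tissue was 0.9697 to 0.9886. The deposited table of liver listed 12259 genes, and 13074 were listed in that of muscle. The 11233 genes in both held 80.3% to 81.0% of the liver counts but 67.4% to 70.0% of the muscle counts. A further 1026 genes were listed in the liver table only and took 19.0% to 19.7% of liver counts, and 1841 were listed in the muscle table only and took 30.0% to 32.6% of muscle counts. Markers fitted the labels: 10 hepatocyte markers summed to 114300 to 126823 CPM in liver, and 10 myofibre markers to 149009 to 175081 CPM in muscle.

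Of 11143 genes tested, 7793 (69.9%) differed between the tissues by edgeR's quasi-likelihood test at a Benjamini-Hochberg adjusted p of 0.05 or less. Liver was higher for 3878 (34.8%) and muscle for 3915 (35.1%). A difference of at least 4-fold was seen for 1306 genes higher in liver (11.7%) and 1213 higher in muscle (10.9%). Values of the 3 liver and 3 muscle samples did not overlap for 8299 genes (74.5%). For 601 genes (5.39%) the 95% interval of the log2 difference lay within 0.5 of 0, the stretch used here for an equal level. These shares are the background for every gene group below, and a log2 difference is always liver minus muscle, with its standard error (SE).

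**Figure D1:**
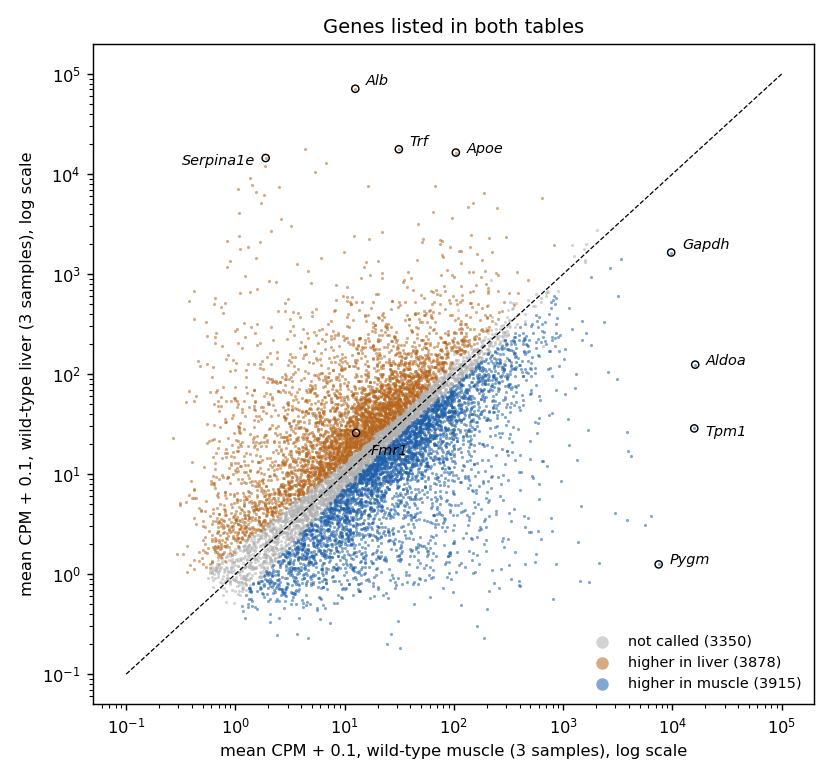
Mean CPM plus 0.1 of each tested gene listed in both tables in liver (vertical, log axis) against muscle (horizontal, log axis), 3 samples each. Colours mark the 3878 genes called higher in liver, the 3915 called higher in muscle and the 3350 not called, and the line marks equal levels. Both called groups fan out along the axes, with albumin at the liver end and Pygm at the muscle end.

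The deepest differences on the liver side were secreted proteins. Albumin, the main protein of plasma, whose gene lies at chr5:90460897-90476602 of GRCm38, stood at 69465, 76974 and 67055 CPM in liver WT 1, 2 and 3 and at 30.9, 3.67 and 2.70 CPM in muscle WT 1, 2 and 3. The groups did not overlap, and muscle WT 1 was the highest of the muscle samples. The log2 difference was 12.48 ± 0.77, a fold of 5720, with an adjusted p of 7.53e-06. Copies of alpha-1 antitrypsin, which inhibits neutrophil elastase, came with it. Serpina1e had the largest log2 difference of all tested genes with a mean count of at least 50 (12.97 ± 0.79), followed by Serpina1a at 12.84, the mineral-binding plasma protein Ahsg at 12.81, Serpina1c at 12.72 and Serpina1b at 12.50. Serpina1e read counts were 139001, 204497 and 235769 in liver and 76, 8 and 2 in muscle. The copies are near identical, so the split of reads among them is uncertain. Others of the 12 largest were the vitamin D carrier Gc (12.14), the protease inhibitor Serpina3k (12.01), transthyretin (Ttr, 11.78), the drug oxidase Cyp3a11 (11.59) and the high-density lipoprotein protein Apoa1 (11.57).

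The muscle reading behind these 12 differences rested on 1 library. Without muscle WT 1 they became 13.33 to 15.45, a shift of 1.73 to 3.23 on the log2 scale, while leaving out any other sample moved them by -0.57 to 0.19. Muscle WT 1 held 62.4 CPM of the 6 listed hepatocyte markers, against 19.0 and 23.6 in muscle WT 2 and 3. Over 48 genes with a log2 difference of at least 5 and a mean of 1000 CPM or more in liver, the median level in muscle was 0.163%, 0.0954% and 0.0779% of the liver level in muscle WT 1, 2 and 3, and 28 of the 48 were highest in muscle WT 1. The source of these reads was not tested. All 12 stayed called without muscle WT 1.

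Plasma protein genes as a group were higher in liver wherever they could be tested. All 17 tested members of 42 were called, up to 12.81, with a median of 10.36 against a median of 0.01 over all genes tested. The other 25 were listed in the liver table only. Transferrin (Trf), the iron carrier, stood at 19351, 16658 and 17023 CPM in liver and 30.3, 32.4 and 30.9 CPM in muscle (log2 difference 9.15 ± 0.24, adjusted p 1.32e-08 by edgeR). Apoe, a lipoprotein ligand, had 20022, 16563 and 12552 CPM in liver and 87.9, 114 and 112 CPM in muscle (7.29 ± 0.28). Unlike albumin, neither Trf nor Apoe was highest in muscle WT 1 among the muscle samples. The retinol carrier Rbp4 had 2994, 2552 and 2511 CPM against 3.16, 1.31 and 1.63 CPM (10.36 ± 0.30). Complement C3 (6.80 ± 0.23) and vitronectin (Vtn, 6.89 ± 0.21), which joins coagulation to cell adhesion, kept 52.9 to 79.9 CPM and 20.3 to 25.1 CPM in muscle.

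Clotting factors and several apolipoproteins were listed for liver only. The fibrinogen chains Fga and Fgb had 4728 to 6381 CPM and 4410 to 5496 CPM in liver, plasminogen (Plg) 2588 to 2884 CPM, and Apob, the scaffold of very-low-density lipoprotein, 5075, 5941 and 8626 CPM. Why a gene is missing from a table is not given in the sources used here, and the listed genes left at most 959 TPM (the authors' level scaled for gene length and library size) for all unlisted genes of a muscle sample together. Set against that ceiling, Apoa2, the second protein of high-density lipoprotein, at 21439 TPM or more in liver, was at least 22.4-fold higher than in muscle. The same bound gave at least 5.60-fold for the lipase inhibitor Apoc3 and at least 5.30-fold for the liver fatty acid binder Fabp1, and 35 liver-only genes exceeded the ceiling in every liver sample.

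Bile acid genes followed. Of 21, 16 were listed for liver only, and 4 of the 5 tested were higher in liver. Cyp7b1, the oxysterol hydroxylase, had 697, 249 and 796 CPM in liver and 0.558, 0.655 and 0.439 CPM in muscle (10.02 ± 0.53, adjusted p 1.14e-07 by edgeR). Cyp27a1, the mitochondrial side-chain hydroxylase, had 530, 489 and 484 CPM against 64.3, 53.6 and 71.3 CPM, a smaller difference of 2.99 ± 0.16. Abcb4, the phospholipid exporter of bile, was not called: 267, 242 and 265 CPM in liver against 233, 218 and 158 CPM in muscle (0.35 ± 0.18, adjusted p 0.103), although its samples did not overlap. Cyp7a1, the rate-limiting enzyme of bile acid synthesis, was low and spread in liver, at 18.3, 14.7 and 89.6 CPM, and Cyp8b1, which makes cholic acid, at 153, 55.8 and 178 CPM. Liver WT 2 was the lowest sample for Cyp7b1, Cyp7a1 and Cyp8b1.

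Urea cycle and amino acid breakdown genes were higher in liver for all 8 tested of 28, with a median of 7.75, and the other 20 were listed for liver only. Ass1, which joins citrulline and aspartate, had 3910, 3468 and 3333 CPM in liver and 2.98, 2.29 and 2.19 CPM in muscle (10.48 ± 0.22). Asl, the next enzyme, had 385, 373 and 375 CPM against 5.83, 4.19 and 4.83 CPM (6.25 ± 0.16). The ornithine carrier Slc25a15 differed least of the cycle (4.14 ± 0.14), with 19.9 to 21.0 CPM in muscle. Cps1, Otc and Arg1, the other cycle enzymes, had 3861 to 6346, 563 to 660 and 1267 to 1366 CPM in liver and were listed there only. In amino acid breakdown, the glycine methyltransferase Gnmt (9.95 ± 0.37) and the tyrosine enzyme Fah (9.03 ± 0.26) showed large differences, and the tyrosine enzyme Gstz1 a smaller one (4.33 ± 0.15).

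Glucose output was less one-sided. Pck1, the committed step of gluconeogenesis, had 2349, 3576 and 3243 CPM in liver and 3.60, 3.27 and 2.51 CPM in muscle (9.93 ± 0.24). G6pc, which frees glucose, was listed for liver only with 198, 851 and 433 CPM. The pyruvate carboxylase Pcx was higher in liver by 2.25 ± 0.21, and Slc37a4, the glucose 6-phosphate carrier, by only 0.65 ± 0.17 (adjusted p 0.00612), with 177, 160 and 192 CPM against 90.0, 119 and 128 CPM. The Slc37a4 call was lost when no scaling factors were used. Glycogen-targeting subunits of protein phosphatase split: Ppp1r3b was higher in liver (5.52 ± 0.30), and Ppp1r3c was higher in muscle, with 301, 323 and 491 CPM against 45.8, 97.7 and 54.1 CPM (-2.50 ± 0.29, adjusted p 4.38e-05).

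Drug metabolism genes were higher in liver for all 9 tested of 28 (median 5.10), with 19 listed for liver only. Cyp3a11 had 5079, 5355 and 4790 CPM in liver and 3.91, 0.589 and 0.376 CPM in muscle. Cyp2e1, the ethanol oxidase, had 6454, 8193 and 7993 CPM against 14.9, 13.7 and 20.1 CPM (8.86 ± 0.24). The conjugating enzyme Gstp1 had 6237, 3399 and 4290 CPM in liver but also 135, 140 and 131 CPM in muscle (5.10 ± 0.25). Por, which passes electrons to P450 enzymes, kept 21.2 to 23.5 CPM in muscle (4.21 ± 0.16), and the dioxin receptor Ahr 3.14 to 4.52 CPM (3.41 ± 0.25).

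On the muscle side the deepest difference was Pygm, at chr19:6384399-6398459, the enzyme that breaks glycogen down during contraction. Its read counts were 125794, 114464 and 113763 in muscle and 18, 18 and 11 in liver, which is 7805, 7496 and 7133 CPM against 1.36, 1.18 and 0.906 CPM. The samples of each tissue lay close together, and the log2 difference was -12.65 ± 0.27, a fold of 6435 (adjusted p 6.11e-09 by edgeR). Srl, a calcium-binding protein of the sarcoplasmic reticulum, followed at -11.22, then the M-band protein Myom1 (-10.87), tropomyosin Tpm2 (-10.84), Ankrd23 (-10.77), the protein kinase A inhibitor Pkia (-10.73), enolase Eno3 (-10.73), the slow troponin Tnnc1 (-10.47), the adenine nucleotide carrier Slc25a4 (-10.13), Epdr1 (-9.61) and the intermediate filament proteins desmin (Des, -9.56) and Synm (-9.53). Leaving out any 1 sample moved the 12 largest muscle differences by -0.54 to 0.50.

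Sarcomere genes were mostly listed in the muscle table only, 44 of 54, and the other 10 were all called higher in muscle, with a median of -8.47. Acta1, the actin of skeletal thin filaments, had 33624, 32467 and 33355 CPM, and Myh4, the myosin of fast type 2B fibres, 44456, 41008 and 31455 CPM. At 43024 TPM or more, Acta1 was at least 39.2-fold above the 1098 TPM that the listed genes left for all unlisted genes of a liver sample. The same bound was at least 28.2-fold for Tnnt3, the fast troponin T, and at least 26.5-fold for the myosin light chain Myl1, and 26 muscle-only genes exceeded the ceiling in every muscle sample. Tropomyosin Tpm1 was listed in both tables, with 15177, 18161 and 14202 CPM in muscle against 30.2, 26.3 and 28.9 CPM in liver (-9.12 ± 0.25). Tpm3, which non-muscle cells also make, differed least (-2.42 ± 0.31), with 710, 419 and 251 CPM in muscle and 78.2 to 95.7 CPM in liver. Nebulin (Neb), the thin-filament ruler, was the 1 myofibre marker of 10 listed for liver, at 11.9, 29.4 and 36.7 CPM there and 4967, 3674 and 2885 CPM in muscle (-7.21 ± 0.38).

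Within the muscle samples fast isoforms dominated. Myh4 made up 76.4%, 83.7% and 80.4% of the summed TPM of 4 adult myosin heavy chains in muscle WT 1, 2 and 3. Myh1 (type 2X) made up 12.8%, 9.38% and 12.2%, Myh2 (type 2A) 7.41%, 4.98% and 6.15%, and Myh7 (slow type 1) 3.43%, 1.90% and 1.24%. The slow share was highest in muscle WT 1 and lowest in muscle WT 3. The same order held for 8 of 8 slow genes (Myh7, Myl2, Myl3, Tnnt1, Tnni1, Tnnc1, Atp2a2 and Casq2), whose highest sample was 1.44 to 3.94 times the lowest. The 8 fast genes compared were Myh4, Myl1, Mylpf, Tnnt3, Tnni2, Tnnc2, Atp2a1 and Casq1. Of these, 1 was highest in muscle WT 1 and 6 were lowest in muscle WT 3, with ratios of 1.11 to 1.35. Myh1 and Myh2 were left out of the 8, and their shares, like the slow share, were highest in muscle WT 1. The labels do not say which muscle or part of a muscle was taken.

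**Figure D2:**
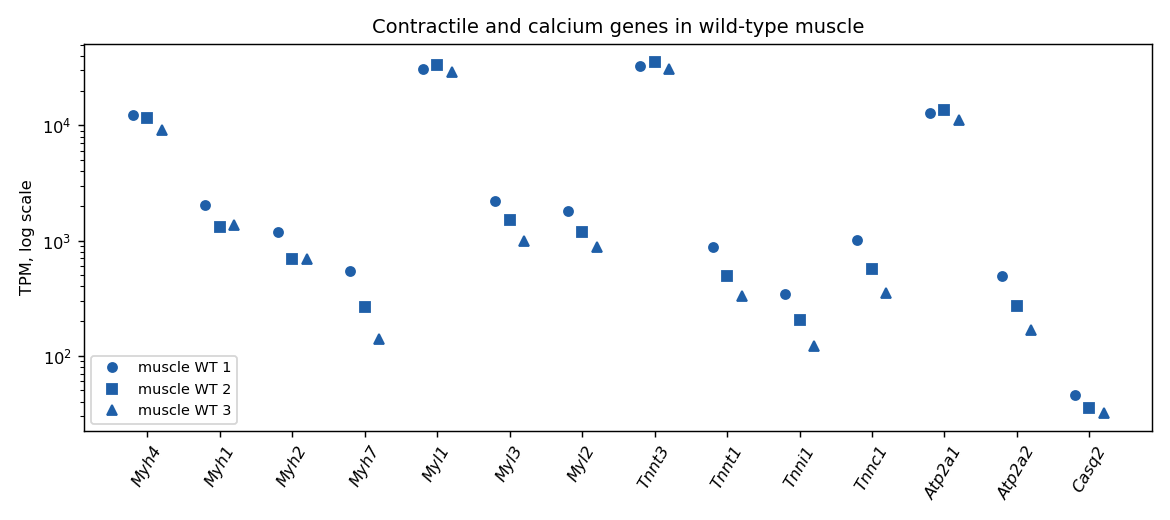
TPM (log axis) of 14 contractile and calcium-handling genes in the 3 muscle WT samples, 1 point per sample. The fast genes Myh4, Myl1, Tnnt3 and Atp2a1 keep their 3 points together. Slow genes such as Myh7 (550, 265 and 140 TPM) are highest in muscle WT 1 and lowest in muscle WT 3.

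Genes that couple excitation to contraction behaved like the sarcomere: 22 of 28 were listed for muscle only and all 6 tested were higher in muscle. The calcium release channel Ryr1 had 4239, 3453 and 2610 CPM, the voltage sensor Cacna1s 893, 915 and 698 CPM, the calcium pump Atp2a1 25968, 26355 and 21354 CPM and the calcium buffer parvalbumin (Pvalb) 6733, 8057 and 6579 CPM. The accessory channel subunit Cacna2d1 was in both tables, with 588, 616 and 441 CPM in muscle against 1.21, 0.657 and 1.81 CPM in liver (-8.82 ± 0.31). Jph1, which holds the triad membranes together, differed by -7.30 ± 0.27, and the membrane-bending Bin1 by -5.61 ± 0.17, with 11.8 to 14.8 CPM in liver.

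The dystrophin complex, which ties the fibre's cytoskeleton to its basement membrane, was less restricted. Of 7 tested members, 6 were higher in muscle, and 4 more were listed there only. Dystrophin (Dmd) had 165, 144 and 102 CPM in muscle and 19.6, 25.8 and 36.0 CPM in liver (-2.34 ± 0.24). Its partner Dag1 differed by -1.64 ± 0.15 and the sarcoglycan Sgcb by -5.98 ± 0.16. Utrophin (Utrn), the dystrophin relative of many cell types, was not called, with 28.6, 50.2 and 61.0 CPM in liver overlapping 39.6, 60.6 and 49.5 CPM in muscle (-0.10 ± 0.26, adjusted p 0.747 by edgeR).

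Energy genes separated the organs step by step. In 25 isozyme pairs, each with a member usually named for liver or general tissue and one named for muscle, all 15 tested muscle-named members were higher in muscle, and 10 more were listed there only. Of 20 tested liver-named members, 15 were higher in liver, and 5 were higher in muscle as well: the lactate carrier Slc16a1, the cytochrome oxidase subunit Cox7a2, the calcium pump Atp2a2, the brain creatine kinase Ckb and Pfkfb1. The Ckb call was lost in 4 of the 6 fits that left out 1 sample, the Cox7a2 call in 1 and the Slc16a1 call in 1. Where both members were in both tables, the liver-named member made up over 50% of the pair's TPM in liver and under 50% in muscle for 12 of 13 pairs. The exception was Pfkfb1 with Pfkfb3, makers of the glycolysis activator fructose 2,6-bisphosphate, where Pfkfb1 was 39.3% of the pair in liver and 29.7% in muscle.

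In glycolysis the muscle hexokinase Hk2 had 0.297 ± 0.0651 TPM (SD, n = 3) in liver and 140 ± 20.6 TPM in muscle. Aldoa, another glycolytic enzyme, had 131 ± 22.1 TPM in liver and 21193 ± 1502 TPM in muscle. Phosphofructokinase was low in liver in both forms, with Pfkl at 12.9 ± 0.575 TPM and Pfkm at 8.69 ± 0.688 TPM, whereas Pfkm reached 2444 ± 158 TPM in muscle. Pfkl made up 59.7% of this pair in liver. For enolase, Eno1 had 320 ± 88.8 TPM and Eno3 3.85 ± 1.08 TPM in liver, against 67.0 ± 13.2 and 8220 ± 247 TPM in muscle. Pyruvate kinase Pkm had 9.26 ± 1.74 TPM in liver, under the 119 ± 23.2 TPM of the liver form Pklr, and 3127 ± 227 TPM in muscle.

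For glycogen phosphorylase, Pygl had 294 ± 32.5 TPM in liver and 1.87 ± 0.359 TPM in muscle, and Pygm 0.593 ± 0.0981 and 4701 ± 114 TPM. For entry of fat into mitochondria, Cpt1a had 132 ± 20.7 TPM in liver and 4.34 ± 0.395 TPM in muscle, and Cpt1b 1.12 ± 0.625 and 192 ± 16.9 TPM. Acetyl-CoA carboxylases overlapped more: Acaca, the form of fatty acid synthesis, and Acacb, whose product restrains Cpt1, had 17.9 and 12.2 TPM on average in liver, and 3.99 and 67.3 TPM in muscle. The adenine nucleotide carrier switched from Slc25a5 (539 ± 16.6 TPM in liver, 71.4 ± 14.8 TPM in muscle) to Slc25a4 (5.18 ± 1.46 and 7188 ± 610 TPM). Ckm, the muscle creatine kinase, had 31932 ± 1318 TPM in muscle and was listed there only.

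**Figure D3:**
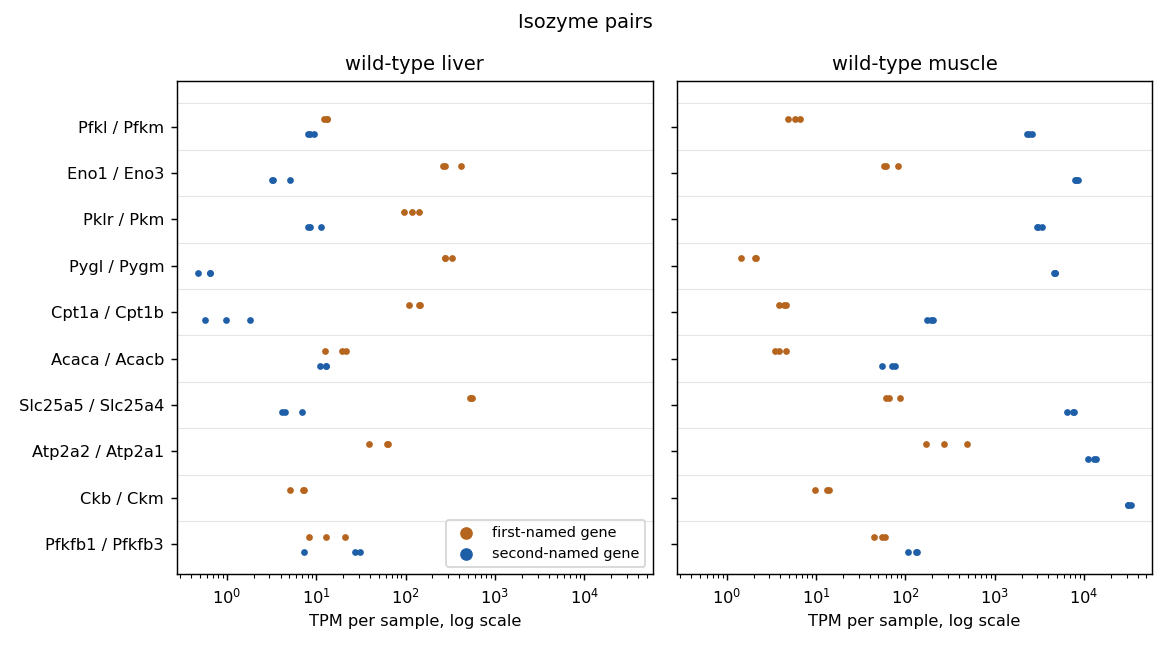
TPM (log axis) of both members of 10 of the isozyme pairs in liver WT (left panel) and muscle WT (right panel), 1 point per sample. The first-named gene of each pair is drawn in orange and the second-named in blue, and a gene with no point in a panel is not listed for that tissue. Orange points lead in liver and blue points in muscle, except that Pfkfb3 has the higher mean of its pair in both tissues.

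Fatty acid oxidation genes were mostly higher in liver. Of 28 tested genes, 19 were higher in liver, 4 in muscle and 5 were not called. All 8 peroxisomal genes were higher in liver, among them catalase (Cat, 3423, 3708 and 3805 CPM against 114, 92.1 and 81.6 CPM, 5.25 ± 0.20) and the bifunctional enzyme Ehhadh (5.53 ± 0.16). Of 16 genes of the carnitine shuttle and mitochondrial oxidation, 8 were higher in liver, 3 in muscle (Cpt1b, Hadhb and Acadl) and 5 were not called, with a median of 0.39. Hadha, the alpha chain of the trifunctional protein, had 415, 405 and 386 CPM in liver overlapping 533, 406 and 391 CPM in muscle (-0.14 ± 0.17, adjusted p 0.483). Its beta chain Hadhb was higher in muscle at 501, 418 and 424 CPM against 224, 220 and 234 CPM (-0.99 ± 0.15, adjusted p 0.000224). The long-chain dehydrogenase Acadl passed (-0.53 ± 0.18, adjusted p 0.025 by edgeR), but lost its call in 4 of the 6 fits that left out 1 sample. The number higher in muscle was 7 with no scaling factors.

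Ketone body genes lay on both sides. All 3 tested genes of ketone synthesis were higher in liver, with a median of 2.35 and a largest difference of 11.24. Bdh1, which interconverts the ketone bodies, differed least of them (1.50 ± 0.31). Oxct1, which ketone-burning tissues need and hepatocytes lack, had 4.53, 3.02 and 2.97 CPM in liver and 529, 451 and 445 CPM in muscle (-7.08 ± 0.20, adjusted p 8.44e-09).

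Core subunits of oxidative phosphorylation were higher in muscle for all 28 tested, but by small steps: the median was -1.23 and the range -2.12 to -0.62. Cytochrome c (Cycs) led, with 788, 685 and 728 CPM against 177, 155 and 174 CPM in liver, and the complex II anchor Sdhd was at the other end, with 292, 255 and 278 CPM against 193, 188 and 154 CPM. The complex V subunit Atp5b had 3749, 3161 and 3228 CPM against 1523, 1357 and 1408 CPM (-1.24 ± 0.20). No muscle sample of these 3 genes fell below a liver sample. All 28 stayed called in that direction with other scaling factors and with none. Tested against a 2-fold minimum, 10 of the 28 passed.

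**Figure D4:**
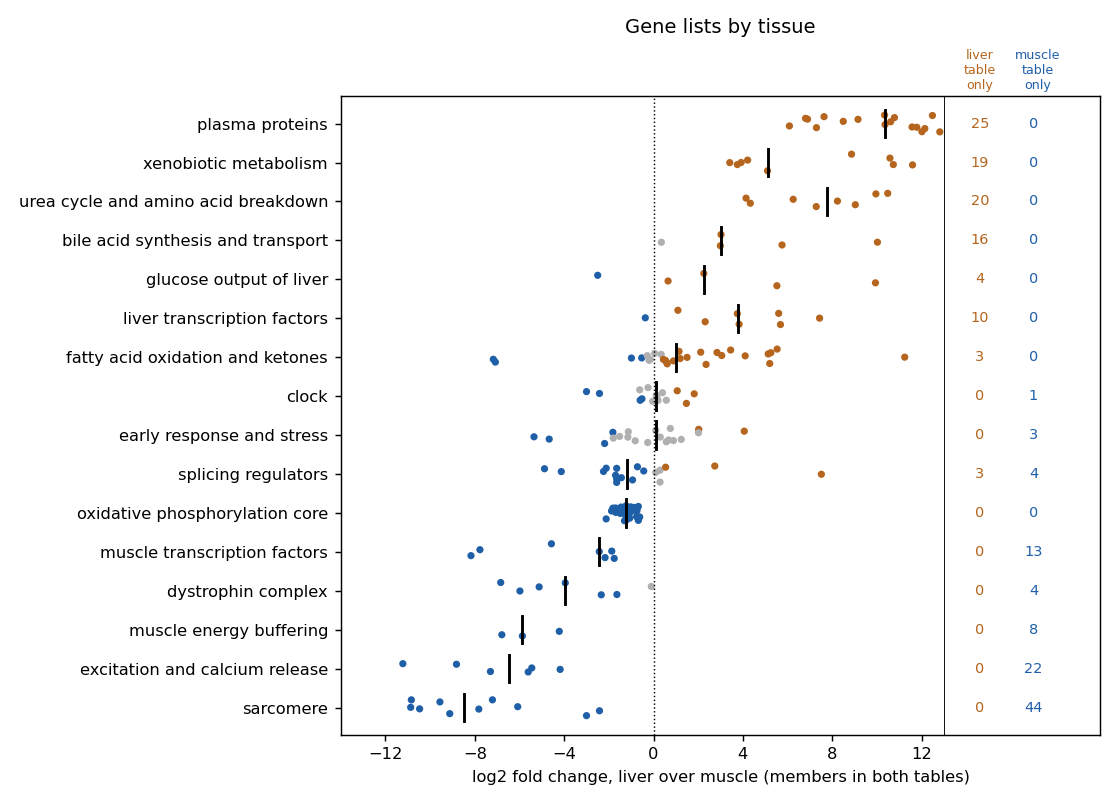
Log2 difference (liver minus muscle) of each tested member of the gene lists, with a black bar at the list's median and a dotted line at 0.01, the median of all tested genes. Numbers at the side count members listed for liver or muscle only. Plasma protein and urea cycle genes lie far to the liver side, sarcomere genes far to the muscle side, and oxidative phosphorylation genes form a narrow band at -2.12 to -0.62.

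Transcription factors mirrored the organs. Of 19 liver regulators, 10, among them Hnf4a (621, 734 and 670 CPM) and the hepcidin and lipid regulator Creb3l3 (437, 303 and 322 CPM), were listed for liver only, and of 8 tested 7 were higher in liver and 1 in muscle. Cebpa had 628, 495 and 481 CPM against 8.31, 11.4 and 11.5 CPM (5.68 ± 0.19). Ppara, the fasting regulator of fat oxidation, differed by 3.75 ± 0.19 and the carbohydrate sensor Mlxipl by 2.31 ± 0.21. Of 20 muscle regulators, 13 were listed for muscle only and all 7 tested were higher there, with a median of -2.43. Mef2c had 707, 631 and 527 CPM against 2.49, 2.36 and 1.57 CPM in liver (-8.17 ± 0.22), but its relatives Mef2a (-1.87 ± 0.18) and Mef2d (-2.17 ± 0.28) differed far less. Of the MyoD family, Myf6 had 91.4, 100 and 114 CPM and Myod1 16.5, 20.6 and 26.1 CPM.

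Hormones and their receptors crossed between the organs. All 9 tested liver-secreted factors were higher in liver. Igf1 had 648, 692 and 725 CPM against 43.1, 36.9 and 45.3 CPM (4.04 ± 0.16), and the selenium carrier Sepp1 6420, 6292 and 6478 CPM against 178, 220 and 171 CPM (5.08 ± 0.21). Hepcidin (Hamp), the iron hormone, was listed for liver only at 442, 716 and 232 CPM. Myostatin (Mstn), the brake on muscle growth, was listed for muscle only at 110, 92.9 and 183 CPM. Among the 4 tested factors of the muscle part of this list, Metrnl (-1.38 ± 0.23) and Il15 (-2.04 ± 0.32) were higher in muscle. The other members, Bdnf (1.67 ± 0.32) and Nrg4 (4.22 ± 0.60), were higher in liver. All 4 were low, with Bdnf at 2.42 to 3.41 CPM in liver and 0.786 to 1.19 CPM in muscle.

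Of 14 tested receptors, 9 were higher in liver, 3 in muscle and 2 were not called. The catecholamine receptor Adra1b had 65.0, 71.8 and 66.5 CPM in liver and 0.186, 0.589 and 0.0627 CPM in muscle (7.90 ± 0.48). The growth hormone receptor Ghr was higher in liver (2.29 ± 0.20), while Igf1r, which binds the hormone that liver secretes, was higher in muscle at 13.8, 16.1 and 16.1 CPM against 1.36, 1.90 and 2.64 CPM (-2.97 ± 0.25). The insulin receptor Insr was higher in liver by 0.75 ± 0.21 (adjusted p 0.00976), a call lost without muscle WT 3 and with no scaling factors. The glucocorticoid receptor Nr3c1 had 105, 121 and 139 CPM in liver overlapping 110, 153 and 109 CPM in muscle (-0.03 ± 0.18, adjusted p 0.909 by edgeR).

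RNA-binding regulators of splicing, the subject of the series, were mostly higher in muscle. Of 18 tested, 12 were higher in muscle, 3 in liver (Rbm47, Ptbp1 and Elavl1) and 3 were not called. The small difference of Elavl1 (0.54) lost its call in 3 of the 6 fits that left out 1 sample, and with upper-quartile factors or none. Mbnl1, which drives the adult splicing pattern of muscle, had 323, 407 and 341 CPM in muscle and 82.9, 99.8 and 158 CPM in liver (-1.65 ± 0.23, adjusted p 0.000137 by edgeR), and Mbnl2 differed by -2.24 ± 0.22. Rbfox1 (181, 192 and 209 CPM) and Rbm24 (235, 256 and 273 CPM) were listed for muscle only, and Rbm38 was higher there by -4.88 ± 0.17. Ptbp1, a repressor of many tissue-specific exons, had 124, 161 and 170 CPM in liver and 16.9, 25.1 and 26.4 CPM in muscle (2.74 ± 0.20). Rbm47, a partner of RNA editing and splicing in epithelia, differed by 7.51 ± 0.27, and the epithelial regulator Esrp2 was listed for liver only. Celf1, which acts against Mbnl1 on many exons, was not called (0.29 ± 0.15, adjusted p 0.117).

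Fmr1, at chrX:68678541-68717963, the gene removed in the knockout samples of the series, had 21.7, 27.3 and 28.2 CPM in liver WT 1, 2 and 3 and 10.4, 15.3 and 12.2 CPM in muscle WT 1, 2 and 3. Every liver sample lay above every muscle sample, and the log2 difference was 1.03 ± 0.19, a fold of 2.04 (adjusted p 0.00073 by edgeR). Its relatives went the other way: Fxr1 had 472, 458 and 349 CPM in muscle against 48.5, 61.9 and 52.6 CPM in liver (-2.97 ± 0.18), and Fxr2 139, 141 and 119 CPM against 51.3, 48.7 and 49.2 CPM (-1.42 ± 0.14). Per length, Fxr1 at 286 to 373 TPM far exceeded Fmr1 at 3.99 to 6.09 TPM in muscle.

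Early response genes, switched on within minutes by stress or growth signals, varied strongly between samples of a tissue. Over 21 genes in both tables, the summed level was 596, 5395 and 7014 CPM in liver WT 1, 2 and 3 and 1012, 4690 and 5200 CPM in muscle WT 1, 2 and 3. Replicate 1 was the lowest liver sample for 20 of 21 genes and the lowest muscle sample for 21 of 21. Egr1 stood at 8.30, 1253 and 1377 CPM in liver and 66.0, 257 and 327 CPM in muscle, and Fos at 3.47, 417 and 700 CPM and 40.3, 339 and 285 CPM. The heat shock gene Dnajb1 had 44.7, 545 and 706 CPM and 21.3, 132 and 169 CPM. The median SD of log2 values was 1.86 in liver and 1.24 in muscle, against 0.209 and 0.137 over all genes with a mean of at least 10 CPM. Handling of the tissue is not described in the labels, and its part in these values was not tested.

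Against that spread 4 of the 21 were called higher in muscle and 2 in liver. Klf4 had 25.2, 215 and 172 CPM in muscle and 0.830, 3.94 and 5.36 CPM in liver (-5.35 ± 0.74, adjusted p 0.000195), and Gadd45b differed by -4.67 ± 0.47. The chemokine Cxcl1 was called higher in liver (4.06 ± 1.36) from 7.10, 24.2 and 653 CPM, and lost its call in 4 of the 6 fits that left out 1 sample. The difference was 0.20 without liver WT 3 (adjusted p 0.857), and it stayed at 3.50 to 4.87 without any of the muscle samples in turn (adjusted p 0.0586 to 0.0949 by edgeR). The other liver call, Ier2 (2.02), was lost without liver WT 3 or muscle WT 1, whereas 7 of the 21 were called higher in liver without liver WT 1. Tnfaip3, a brake on inflammatory signalling, had 1.21, 6.63 and 333 CPM in liver and 10.2, 10.7 and 17.4 CPM in muscle, and was not called (3.15, adjusted p 0.0704 by edgeR). It was called lower in liver without liver WT 3 (-1.68, adjusted p 0.0232), and called higher in liver without liver WT 1 (3.72, adjusted p 0.0132) and without liver WT 2 (3.71, adjusted p 0.0277). Moxd1, a monooxygenase-like gene, was on in liver WT 1 and 3 at 165 and 162 CPM and at 1.18 CPM in liver WT 2, near the 0.786 to 0.941 CPM of muscle.

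**Figure D5:**
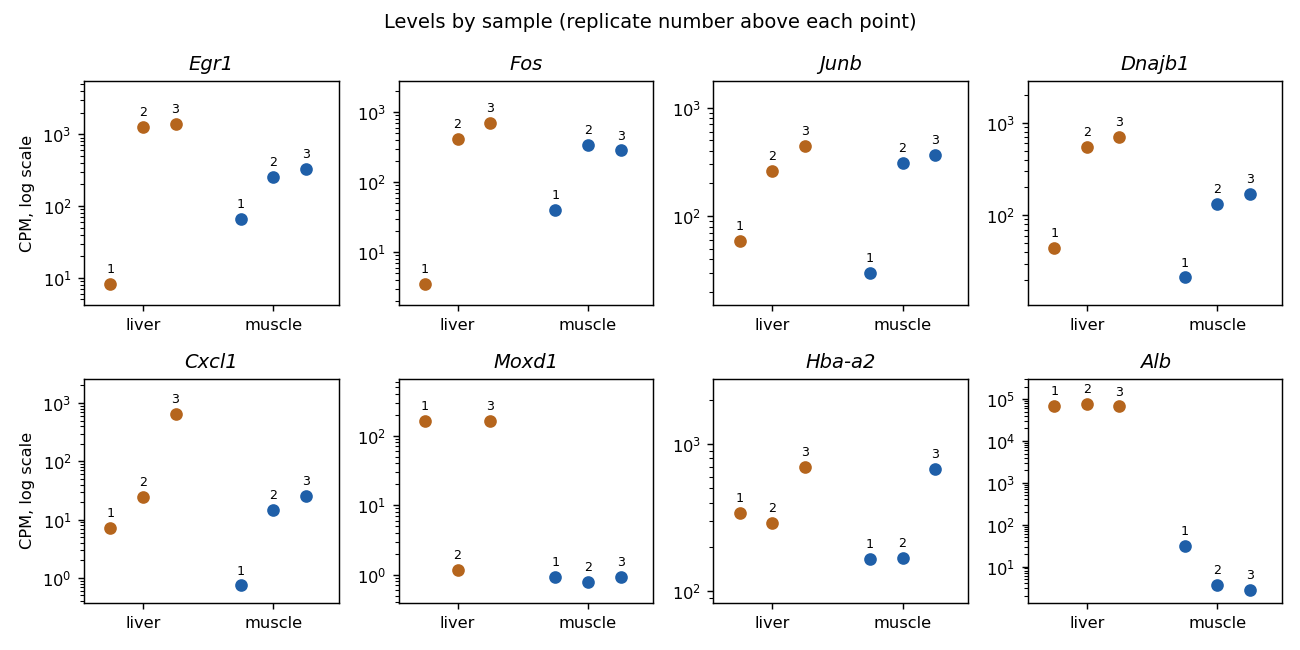
CPM (log axis) of 8 genes in each liver and muscle sample, with the replicate number beside each point. Egr1, Fos, Junb and Dnajb1 are lowest in replicate 1 of both tissues, Cxcl1 is far highest in liver WT 3, Moxd1 is low in liver WT 2, and Hba-a2 is highest in replicate 3 of both tissues, while albumin is steady in liver and highest in muscle WT 1 among the muscle samples.

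Clock genes varied less than the early response genes, with a median SD of log2 values of 0.316 in liver and 0.15 in muscle. Liver WT 1 was the lowest liver sample for 13 of 15, and their summed level was 1071, 1603 and 1370 CPM in liver WT 1, 2 and 3. Of 15 tested, 3 were higher in liver, 4 in muscle and 8 were not called. Arntl, an activator of the clock, had 2.04, 1.64 and 0.494 CPM in liver and 9.12, 6.42 and 7.27 CPM in muscle (-2.42 ± 0.39), and the repressor Bhlhe41 differed by -3.00 ± 0.22. Per2 was higher in liver (1.82 ± 0.38) and the output factor Hlf too (1.47 ± 0.18). Dbp, another output factor, had 202, 190 and 139 CPM in liver overlapping 141, 153 and 169 CPM in muscle (0.20 ± 0.17, adjusted p 0.327 by edgeR). The hour of sampling is not in the labels.

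Markers of other cell types also differed, here summed over the markers listed in both tables. Fibroblast markers summed to 233 to 258 CPM in liver and 1654 to 2616 CPM in muscle, with 8 of 9 tested higher in muscle. Macrophage markers summed to 232 to 348 CPM in liver and 138 to 160 CPM in muscle, with 7 of 8 tested higher in liver. Sinusoidal endothelial markers (4 genes) were at 111 to 135 CPM against 44.6 to 52.1 CPM, general endothelial markers (8 genes) at 149 to 207 CPM against 342 to 501 CPM, adipocyte markers (3 genes) at 8.08 to 8.83 CPM against 180 to 260 CPM and Schwann cell markers (3 genes) at 5.36 to 6.57 CPM against 107 to 182 CPM. Smooth muscle and pericyte markers (5 genes) reached 211 to 320 CPM in muscle against 84.6 to 117 CPM in liver, and bile duct markers (3 genes) 41.1 to 83.0 CPM in liver against 5.65 to 14.5 CPM. Of 5 satellite cell markers, of the stem cells of muscle, 4 were listed for muscle only, and all 5 summed to 105 to 121 CPM there. Of 6 heart muscle markers, 2 were listed in muscle, at 4.28, 46.0 and 30.2 CPM in all, and of 8 lymphocyte markers 3 were listed in liver, at 2.82 to 4.37 CPM. Of 4 tested red cell genes, 3 were not called. Alas2, the red cell enzyme of haem synthesis, was higher in liver, with 212, 141 and 168 CPM against 3.97, 4.52 and 14.4 CPM (4.51 ± 0.41, adjusted p 1.11e-05 by edgeR). The haemoglobin gene Hba-a2 had 342, 292 and 695 CPM in liver and 166, 168 and 678 CPM in muscle (0.39 ± 0.53, adjusted p 0.529), highest in liver WT 3 and in muscle WT 3, although its reads cannot be told apart from those of its near-identical copy. The part of these cell types, or of blood left in the tissue, in the differences above was not tested.

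Among the 15 genes with the highest level of the 601 at an equal level were the ribosomal proteins Rpl4, Rpl5, Rpl7, Rps4x and Rps7, the translation factor Eif5a, the fatty acid dehydrogenase Acadvl, the adhesion and signalling protein Ctnnb1 and the peroxide enzyme Gpx4. Rpl4 stood at 618, 567 and 560 CPM in liver and 645, 655 and 594 CPM in muscle (-0.12 ± 0.16). Rpl5 had a log2 difference of 0.00 ± 0.14. Genes often used to scale expression were mostly not among them: of 15, chosen after the data were seen, 7 were higher in liver, 5 in muscle and 3 were not called. Gapdh, a glycolytic enzyme, had 1879, 1443 and 1602 CPM in liver and 10657, 8900 and 9662 CPM in muscle (-2.57 ± 0.23), and B2m, a subunit of class I histocompatibility proteins, 1944, 1628 and 2027 CPM against 80.3, 89.5 and 108 CPM (4.33 ± 0.19). Actb (0.46 ± 0.25), Rpl13a (0.20 ± 0.17) and Polr2a (-0.17 ± 0.20) had overlapping samples and were not called.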

How the data were processed

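RNA sequencing of 3 liver WT and 3 muscle WT samples was used. Per the labels, total RNA was extracted with TRIzol, treated with DNase and made into libraries by a service company. The deposited tables hold whole-number read counts per gene and the authors' TPM values, 1 table per tissue. The submitters' processing notes name Trimmomatic 0.39, Bowtie2 2.3.5, STAR 2.6.1, RSEM 1.3.1 and DESeq2 1.16.1 and the builds GRCm38 and mm10. Neither the filter that set which genes a table lists nor the use of strand is stated in the labels. The muscle columns bear the suffix GA and were matched by genotype and replicate number. 4 further value columns of the muscle table belong to no sample of the series and were not used.

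Counts were joined by gene symbol. Genes passing edgeR's filterByExpr were tested with edgeR 4.0.16 (glmQLFit and glmQLFTest, TMM factors, R 4.3.3), without a replicate block, and p-values were adjusted over all tested genes (Benjamini-Hochberg, call at 0.05). CPM values use TMM-scaled library sizes over all listed genes. DESeq2 1.42.0 was an alternative. The biological coefficient of variation was 19.4%. The script was tested on simulated counts. Total counts of 13473200 to 16168225 per sample limit precision only for genes of few reads. The remaining alternatives were other scaling factors, other filters, a test against a 2-fold minimum, a replicate block and leaving out each sample.

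The text names the 12 genes with the largest log2 difference in each direction among those called with a mean count of at least 50, genes of the highest level in each tissue and among genes listed for 1 tissue, genes of the largest spread between samples, and examples from the gene lists. Some genes that fall under this rule are not reported here. The samples and lists were chosen with earlier results of these data known, and the reference gene, urinary protein and antitrypsin lists, the gene families and the motif shares of genes listed for 1 tissue were chosen after seeing the data. Gene coordinates are from GENCODE M21, and promoter sequences from RefSeq on GRCm38.p6. The splicing tables of these tissues and the knockout samples were left out.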

Additional observations from a re-analysis of the deposited data

How the results depend on the processing

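Of 337 list and named genes tested, 287 were called, and 225 of these kept call and direction under each of the 15 alternatives that tested them (213 were tested under all 15). The other 62 lost the call under the test against a 2-fold minimum, and some of them under others. Calls numbered 3860 higher in liver and 3831 higher in muscle with DESeq2, 3533 and 4264 with upper-quartile factors, and 3160 and 4704 with no scaling factors, against 3878 and 3915. Upper-quartile factors moved the median log2 difference of all genes by -0.125 and no scaling by -0.262. Against a 2-fold minimum, 2068 genes were called higher in liver and 2000 in muscle, and the list counts became 11 in liver and 2 in muscle for fatty acid oxidation (7 in muscle with no scaling), 10 for oxidative phosphorylation, 2 for clock genes in muscle, 3 and 3 for reference genes, and 0 for early response genes in liver, for the FMRP family in liver and for liver factors in muscle. The replicate block gave 7750 calls in all, and it changed list counts by over 1.5 times, to 5 in liver and 9 in muscle for early response genes, and left 0 liver factors in muscle instead of 1. Same-numbered samples correlated by 0.244, 0.176 and 0.0217 in their deviations from the tissue means, so not every pair passed 0.1, and liver WT 3 correlated best with muscle WT 2 (0.164). The labels do not say what the numbers share, so the fit without the block was kept. Early response genes called in liver were 1 with DESeq2 and with no scaling. With a minimum of 10 CPM in 1 tissue, 0 muscle-secreted genes were called in muscle, since fewer genes were tested, and 467 liver-only and 415 muscle-only genes remained. With RLE factors 1 of the sex-linked genes was called higher in liver.

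Leaving out each sample gave 211 to 695 genes at an equal level, 0 to 7 early response genes and 0 to 1 sex-linked genes called in liver, and 0 to 1 liver factors called in muscle. The Tnfaip3 difference of 3.15 ranged from -1.68, reversed, without liver WT 3 to 3.72 without liver WT 1. Among genes at least 2-fold different, 6.45% of liver promoters and 6.44% of muscle promoters held the HNF4 repeat. The TATA box was in 9.99% of liver promoters. The E-box, the CArG box and the TATA box were in 21.8%, 1.94% and 8.94% of muscle promoters. The cause of these shifts was not tested. Small counts in the lower tissue limit the largest folds, and genes listed for 1 tissue have no test.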

Other observations

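Gene families grouped by symbol after the data were seen showed further differences. Collagens, the fibres of the extracellular matrix, were higher in muscle for 20 of 24 tested, with a median log2 difference (liver minus muscle) of -2.63, and 17 more were listed for muscle only. Col1a1 had 239, 370 and 333 CPM in muscle and 11.3, 6.37 and 8.32 CPM in liver (-5.18 ± 0.24, SE), and Col3a1 476, 603 and 587 CPM against 38.7, 26.8 and 33.8 CPM (-4.07 ± 0.18). Col18a1, a basement membrane collagen, went the other way with 1110, 998 and 803 CPM in liver and at most 19.1 CPM in muscle (5.82 ± 0.18, adjusted p 1.41e-08 by edgeR). Histocompatibility genes were higher in liver for 13 of 20 tested, in muscle for 2, and 5 were not called. H2-Q10, a secreted class I protein, had 2509, 1903 and 1944 CPM in liver and 1.12, 0.327 and 0.752 CPM in muscle (11.47 ± 0.35), and the classical H2-K1 1701, 1327 and 1379 CPM against 68.0, 82.5 and 89.9 CPM (4.20 ± 0.19). Of 28 Hox genes, which set position along the body axis, 24 were listed for muscle only, led by Hoxc10 at 73.5, 63.7 and 71.4 CPM, and 1 for liver only. Of 45 potassium channel genes, 27 were listed for muscle only and 5 for liver only, and of the 12 tested 2 were higher in liver, 4 in muscle and 6 were not called.

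Families that both organs use differed unequally. Of 80 tested ribosomal protein genes, 11 were higher in liver, 16 in muscle and 53 were not called (median -0.11), with 8 and 38 called when no scaling factors were used. Rpl3l, a muscle form of Rpl3, was listed for muscle only at 572, 520 and 540 CPM. Of 77 mitochondrial ribosomal protein genes, 9 were higher in liver and 40 in muscle (median -0.43), or 3 and 52 with no scaling factors. All 37 complex I subunits tested were higher in muscle (median -1.39), also with no scaling factors. Proteasome subunits were higher in liver for 6, in muscle for 11 and not called for 20 of 37, or for 5, 18 and 14 with no scaling factors.

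Major urinary proteins, the pheromone carriers that male mouse liver makes, were among the most abundant liver transcripts. Mup20 had 16499, 5885 and 16276 CPM in liver and 16.8, 2.10 and 0.941 CPM in muscle, and Mup3 10748, 9559 and 11295 CPM and 13.4, 1.51 and 0.752 CPM. Another 13 were listed for liver only, with Mup7 at 6669, 3198 and 5084 CPM. Liver WT 2 was the lowest sample for Mup20, Mup3 and Mup7, and muscle WT 1 the highest muscle sample for Mup20 and Mup3. These copies are near identical, so the split of reads among them is uncertain. Of the sex-linked genes, Xist was listed in neither table, and none of the 4 tested Y-linked genes was called by edgeR, with 1 at an unadjusted p under 0.05. Ddx3y had 71.3, 110 and 116 CPM in liver and 104, 130 and 95.9 CPM in muscle.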
